A study of Saccharomyces cerevisiae with 6 samples.

Results

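COX4, COX5B, QCR9, QCR10, ERV1 and MRPL44 are nuclear genes of budding yeast that carry an intron and encode proteins of mitochondria. They were chosen by gene name. Each of the 6 genes had 1 row in a table of 239 genes with introns, and every row held all 9 of its values. The study compared RNA of a yeast strain that lived on PRP8 with the S2197F change with RNA of a strain that lived on wild-type PRP8. In both strains the chromosomal PRP8 was deleted and the remaining copy sat on a HIS-marked centromeric plasmid, so the wild type is a plasmid-complemented strain too. Cultures were started overnight at 30 °C in rich medium (YEPD) and shifted by dilution to 37 °C, where they were harvested near an OD600 of 0.7. Both RNAs of a pair were hybridised together on 2-colour arrays, 6 in all and 2 with exchanged dyes for each of 3 independent pairs of cultures, so n = 3 biological replicates. PRP8 itself was not analysed here.

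Most genes for mitochondrial proteins lie in the nucleus, and in yeast few of them have introns. The introns are spliced out of their messages, and the proteins are made in the cytosol and imported. Prp8 is the protein at the heart of the spliceosome, the machine that cuts at the 5′ splice site and then joins the exons. COX4 and COX5B encode subunits of cytochrome c oxidase, complex IV of the respiratory chain, and QCR9 and QCR10 encode small subunits of the cytochrome bc1 complex, complex III. Erv1 is the sulfhydryl oxidase that drives folding of imported proteins in the intermembrane space. MrpL44 is a protein of the large subunit of the mitochondrial ribosome, which translates the messages of mitochondrial DNA.

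Each gene was measured by an intron feature, a feature across the exon junction and an exon feature, which the labels call pre-mRNA, mature mRNA and total mRNA. An intron feature can also bind splicing intermediates and excised introns. Values are the authors' log ratios of mutant over wild type, taken as log2, so fold changes rest on that assumption, and a value of 0 is no difference. Means are followed by limma's moderated SE with n = 3, and a feature passed when its p, adjusted over all features of its class, was below 0.05. In RNA of a whole culture, a change in the share of cells that express a gene and a change in RNA per cell cannot be told apart. Across all features the replicates correlated at r of 0.41 to 0.64 for introns, 0.014 to 0.39 for exons and 0.0015 to 0.23 for junctions. Differences between genes in exons and junctions thus repeated poorly, which does not measure the spread of a single feature over its replicates. These correlations are across genes, which are not independent.

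None of the 6 introns passed (0 of 6), against 59 of 251 introns in the table (23.5%), all of which were higher in the mutant. By limma, 1 of the 6 had an unadjusted p below 0.05, against 92 of 251 (36.7%). The intron of COX4 had the highest mean of the 6 at 0.45, followed by QCR10 at 0.23, COX5B at 0.098, MRPL44 at 0.074, ERV1 at -0.12 and QCR9 at -0.17. The median of the 6 was 0.086, and that of all introns 0.27. In 5 of the 6 genes the mean lay below the median of all introns, with COX4 as the exception. By replicate, the median of the 6 was -0.17, 0.035 and 0.34 (0.069 ± 0.26, SD, n = 3), and that of all introns was 0.22, 0.29 and 0.38. The intron ratio was above 0 in all 3 replicates in COX4 alone, against 51.4% of introns in the table. It was below 0 in all 3 in QCR9 alone, against 4.49%.

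**Figure D1:**
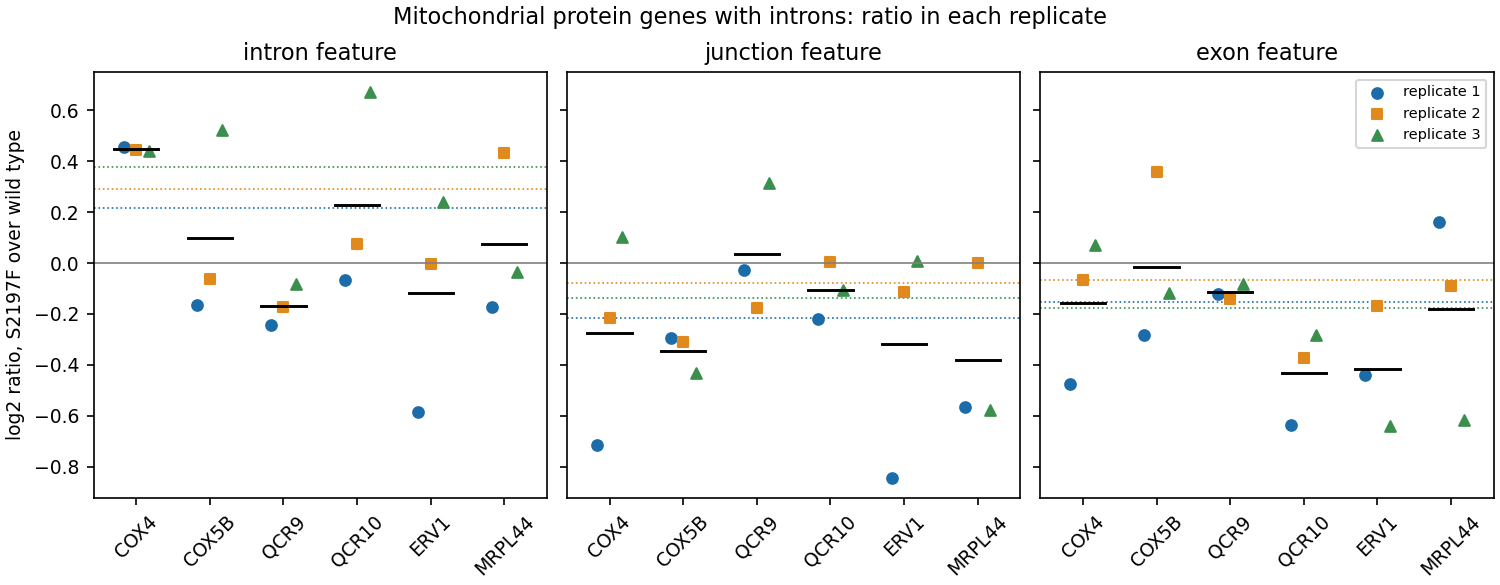
Log2 ratio of mutant over wild type (y axis) for the intron, junction and exon feature of each gene (x axis), 1 point per replicate, with a black bar at the mean of 3 and dotted lines at the median of all features in the replicate of the same colour. The 3 intron values of COX4 lie between 0.44 and 0.46, while those of ERV1 run from -0.59 to 0.24.

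COX4 encodes an essential structural subunit of cytochrome c oxidase. Its intron had ratios of 0.46, 0.44 and 0.44 in replicates 1, 2 and 3. All 3 were on the side of more signal in the mutant and nearly the same height. The mean was 0.45 ± 0.15, a 1.36-fold difference with a 95% interval of 0.095 to 0.80, and it did not pass (adjusted p = 0.067). The SD over the replicates was 0.0092, and limma's SE is larger because it borrows its variance from all features. With the variance of the row alone the adjusted p was 0.018, in a setting added after the values were seen and in which 3 introns of the table passed. With each replicate centred on its exon median the mean was 0.58, and the intron passed (adjusted p = 0.020). The exon medians were negative (-0.15, -0.068 and -0.18), so this centring raised all introns, and 92 passed against 59 without it. Over all settings the adjusted p ran from 0.018 to 0.55. It was 0.20, 0.23 and 0.18 without replicates 1, 2 and 3 in turn, where 35, 2 and 47 introns of the table passed. The COX4 intron ranked 84 of 251 from the top. Against the intron median of each replicate it stood at 0.15 ± 0.15 (95% interval -0.20 to 0.50, adjusted p = 0.55). This comparison, added after the values were seen, did not show it to differ from the typical intron.

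The spliced and total RNA of COX4 varied more than its intron. The junction had -0.71, -0.22 and 0.10, and the exon -0.47, -0.067 and 0.069. Replicate 1 was lowest and replicate 3 highest in both, and both crossed 0. The means were -0.28 ± 0.19 for the junction (adjusted p = 0.59) and -0.16 ± 0.17 for the exon (adjusted p = 0.71).

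The intron of COX4 stood above its own junction by 1.17, 0.66 and 0.34 in the 3 replicates. The difference had the same sign each time, but its size differed widely between replicates 1 and 3. The mean of 0.72 ± 0.28 (1.65-fold, 95% interval 0.16 to 1.29) did not pass (adjusted p = 0.051). It passed when only rows with values in every replicate were fitted (adjusted p = 0.037), where 67 rows of the table passed. With robust empirical Bayes variances it passed as well (adjusted p = 0.046), among 63 rows, against 53 without either change. It did not pass when a replicate was left out (adjusted p = 0.12 to 0.26). Without replicates 1, 2 and 3 in turn, 33, 37 and 2 rows of the table passed. The adjusted p was 0.32 with the variance of the row alone, where no row of the table passed. The intron stood above the exon by 0.93, 0.51 and 0.37, with a mean of 0.60 ± 0.23 (adjusted p = 0.060).

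COX5B encodes the isoform of subunit 5 that replaces the Cox5a isoform when oxygen is scarce, and in well aerated cultures it is little expressed. Its intron had -0.16, -0.065 and 0.52. The value of replicate 3 alone was above 0 and set the sign of the mean, 0.098 ± 0.19 (95% interval -0.33 to 0.53, adjusted p = 0.74). The junction had -0.30, -0.31 and -0.43, below 0 each time and with a small spread (SD 0.074). Its mean of -0.34 ± 0.15, 1.27-fold lower, did not pass (adjusted p = 0.38, unadjusted p = 0.055). The exon had -0.28, 0.36 and -0.12 and no common sign, with a mean of -0.014 ± 0.18 (adjusted p = 0.96).

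Within COX5B the intron exceeded the junction by 0.13, 0.24 and 0.95, mostly through replicate 3. The mean was 0.44 ± 0.28 (adjusted p = 0.27). The intron minus exon difference was 0.12, -0.42 and 0.64, with a mean of 0.11 ± 0.25 (adjusted p = 0.75), and junction minus exon was -0.33 ± 0.22 (adjusted p = 0.70). Both cytochrome oxidase genes thus had a positive mean for the intron and a negative mean for junction and exon. QCR10 and MRPL44 had the same signs, as did the medians of all features (0.27, -0.10 and -0.12). The signs of the COX5B intron and exon turned when some replicates were left out. Neither cytochrome oxidase gene passed in any class.

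QCR9 encodes a small subunit of complex III that is needed for its activity. Its intron had -0.24, -0.17 and -0.083, all on the side of less signal in the mutant. The mean of -0.17 ± 0.15 did not differ from 0 (95% interval -0.52 to 0.19, adjusted p = 0.46). It ranked 238 of 251 from the top. The upper bound of the interval lay below the median of all introns, 0.27.

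Set against the intron median of its replicate, QCR9 stood at -0.46 each time (-0.4616, -0.4647 and -0.4618), so it followed the medians of the 3 replicates closely. This comparison was added after the values were seen. The mean of -0.46 ± 0.14 had an unadjusted p of 0.015 and did not pass over all introns (adjusted p = 0.16, 95% interval -0.80 to -0.12). By the same test 4 of 251 introns passed (1.59%), all higher. Hence QCR9 was not shown to differ from the typical intron once all introns were considered.

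The junction of QCR9 had -0.028, -0.18 and 0.31, with a mean of 0.036 ± 0.17 (adjusted p = 0.93). It was the highest junction of the 6 genes, and its replicates lay on both sides of 0. The exon had -0.12, -0.14 and -0.083, with a mean of -0.11 ± 0.15 (adjusted p = 0.80). The 3 exon values were the closest of the 6 genes (SD 0.030) and near the median of all exons, -0.12. In QCR9 the intron was below the junction in replicates 1 and 3 (-0.22 and -0.40) and level with it in replicate 2 (0.0040). The mean difference was -0.20 ± 0.28 (95% interval -0.76 to 0.36, adjusted p = 0.63), and intron minus exon was -0.052 ± 0.23 (adjusted p = 0.86). QCR9 was the only gene of the 6 in which both differences had a negative mean.

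QCR10 encodes the other small subunit of complex III and is dispensable for growth by respiration. Its intron had -0.066, 0.073 and 0.67, near 0 in replicates 1 and 2 and high in replicate 3. The mean was 0.23 ± 0.19 (adjusted p = 0.42). Its exon had -0.64, -0.37 and -0.28, all below 0, and the mean of -0.43 ± 0.16 was 1.35-fold lower and the lowest exon of the 6 (95% interval -0.80 to -0.058). It had an unadjusted p of 0.029 and did not pass (adjusted p = 0.34). The junction had -0.22, 0.0030 and -0.10, with a mean of -0.11 ± 0.16 (adjusted p = 0.81).

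QCR10 gave the single call among these genes. Its intron minus exon difference was 0.57, 0.45 and 0.95, above 0 in every replicate, with a mean of 0.66 ± 0.23 (1.58-fold, 95% interval 0.17 to 1.15, adjusted p = 0.041). This was 1 of 6 genes, against 72 of 246 rows in the table (29.3%), so the share was not above the background. The difference ranked 73 of 246 from the top, and its interval held the median of all rows, 0.38. The call was lost without replicate 2 (adjusted p = 0.15) and without replicate 3 (adjusted p = 0.19), where 45 and 57 rows of the table passed. It was lost as well without replicate 1 (adjusted p = 0.11) and with the variance of the row alone (adjusted p = 0.22), but there no row of the table passed, so these settings say nothing about QCR10. The means behind it were 0.23 for the intron and -0.43 for the exon, and neither passed alone. Against the junction the intron of QCR10 differed by 0.15, 0.071 and 0.78, a mean of 0.33 ± 0.28 that did not pass (adjusted p = 0.41). Junction minus exon was 0.42, 0.38 and 0.18, above 0 in all 3, with a mean of 0.32 ± 0.20 (adjusted p = 0.70).

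ERV1 encodes an essential enzyme that reoxidises the import receptor of the intermembrane space. Its intron had -0.59, -0.0027 and 0.24, and its junction -0.85, -0.11 and 0.0083. In both, replicate 1 was far below the others and replicate 3 was highest. The means were -0.12 ± 0.20 for the intron (adjusted p = 0.72) and -0.32 ± 0.20 for the junction (adjusted p = 0.55). The exon had -0.44, -0.17 and -0.64, below 0 each time, with a mean of -0.42 ± 0.17 (1.34-fold lower, unadjusted p = 0.038, adjusted p = 0.38).

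The difference of intron and junction of ERV1 was steady over the replicates at 0.26, 0.11 and 0.23 (SD 0.080). Its mean of 0.20 ± 0.28 did not pass (adjusted p = 0.63). Intron minus exon was -0.14, 0.17 and 0.88, with a mean of 0.30 ± 0.25 (adjusted p = 0.37). In replicate 3 the exon of ERV1 was the lowest of its 3 values and the intron the highest, although the intron was below the median of all introns in that replicate.

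MRPL44 encodes a mitochondrial ribosomal protein. Its intron had -0.17, 0.43 and -0.036, where replicate 2 alone was above 0, and a mean of 0.074 ± 0.18 (adjusted p = 0.79). Its junction had -0.56, -0.0011 and -0.58, at 0 in replicate 2 and low in the others. The mean of -0.38 ± 0.18 was the lowest junction of the 6, 1.30-fold lower than wild type, and did not pass (adjusted p = 0.40, unadjusted p = 0.068). The exon ran from 0.16 in replicate 1 through -0.091 to -0.62 in replicate 3, the widest exon spread of the 6 genes (SD 0.40), with a mean of -0.18 ± 0.19 (adjusted p = 0.71).

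The intron of MRPL44 stood above its junction by 0.39, 0.43 and 0.54, the steadiest of these differences (SD 0.077). The mean was 0.45 ± 0.28 (1.37-fold), close to the median of all rows, 0.39, and it did not pass (adjusted p = 0.25). Limma gave nearly the same SE, 0.28, to all 6 genes here, because variances in this fit were drawn to a common value with 57.2 prior degrees of freedom. The SE therefore hardly reflects how closely the replicates of a single gene lay together. Intron minus exon was -0.34, 0.52 and 0.58, with a mean of 0.25 ± 0.25 (adjusted p = 0.43).

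**Figure D2:**
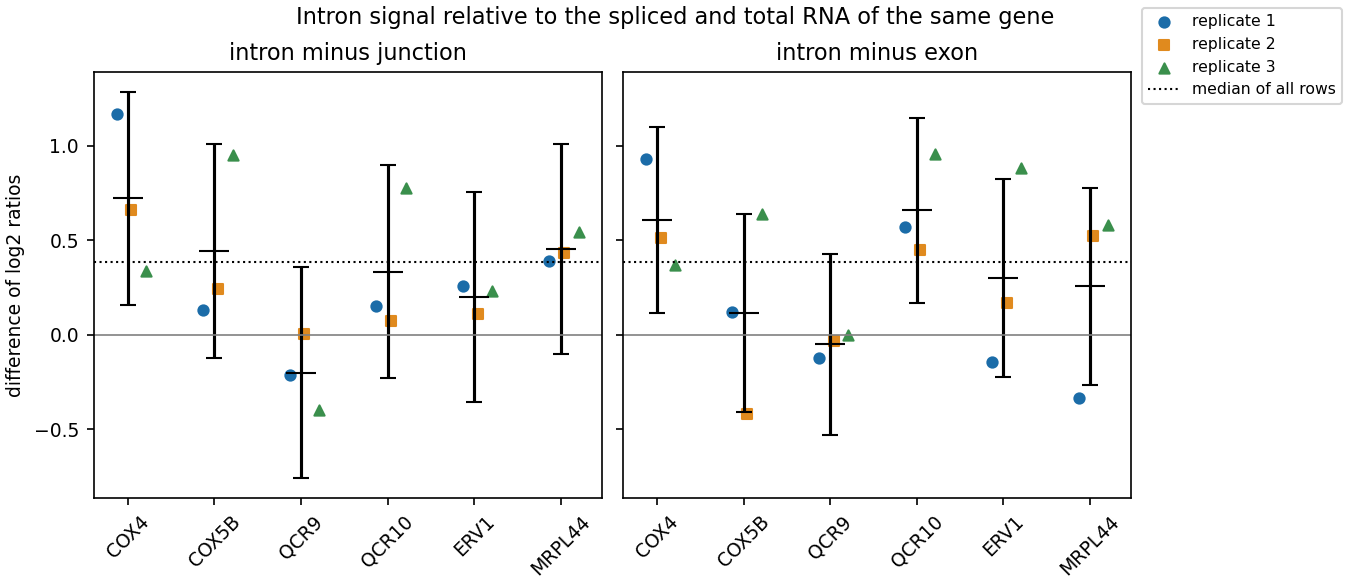
Difference of log2 ratios within a gene (y axis), intron minus junction on the left and intron minus exon on the right, for the 6 genes. Points are replicates, black marks are means with limma's 95% intervals, and the dotted line is the median of all rows, 0.39 and 0.38. The intervals of COX4 exclude 0 in both panels and that of QCR10 in the right one, before adjustment over all rows.

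Over the 6 genes the intron exceeded the junction in all 3 replicates in 5, with QCR9 as the exception, against 57.5% of rows in the table. By limma 0 of 6 passed for intron minus junction, against 53 of 247 rows (21.5%), and 1 of the 6 had an unadjusted p below 0.05, against 34.8% of rows. The median of the 6 means was 0.39 and equal to that of all rows, 0.39. By replicate the medians of the 6 were 0.21, 0.18 and 0.44, and those of all rows 0.36, 0.40 and 0.53. Intron minus exon was above 0 in all 3 replicates in 2 of 6, COX4 and QCR10, against 54.2% of rows. Those 2 also had an unadjusted p below 0.05 by limma, against 41.5% of rows. The median was 0.28 for the 6 and 0.38 for all rows.

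Junctions and exons of the 6 genes were mostly negative, as they were in the table. None of the 6 junctions passed (0 of 6), against 1 of 248 (0.403%), and 0 of the 6 had an unadjusted p below 0.05, against 13.3%. The median of the 6 was -0.30 and that of all junctions -0.10, with 5 of 6 below it. Junction ratios were below 0 in all 3 replicates in COX5B and MRPL44, 2 of 6, against 29.7% of junctions. None of the 6 exons passed (0 of 6), against 0 of 234 (0%), while QCR10 and ERV1, 2 of 6, had an unadjusted p below 0.05 by limma, against 30 of 234 (12.8%). All 6 exon means were negative, with a median of -0.17 against -0.12 for all exons, and QCR9, QCR10 and ERV1 were below 0 in all 3 replicates, 3 of 6 against 33.3%. With the exon median of a replicate set to 0, the mean turned positive for the exons of COX5B (0.12) and QCR9 (0.018), the junction of QCR10 (0.026) and the intron of ERV1 (0.016). For junction minus exon 0 of 6 passed, against 0 of 244 (0%), and 0 of the 6 had an unadjusted p below 0.05, against 4.51% of rows.

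**Figure D3:**
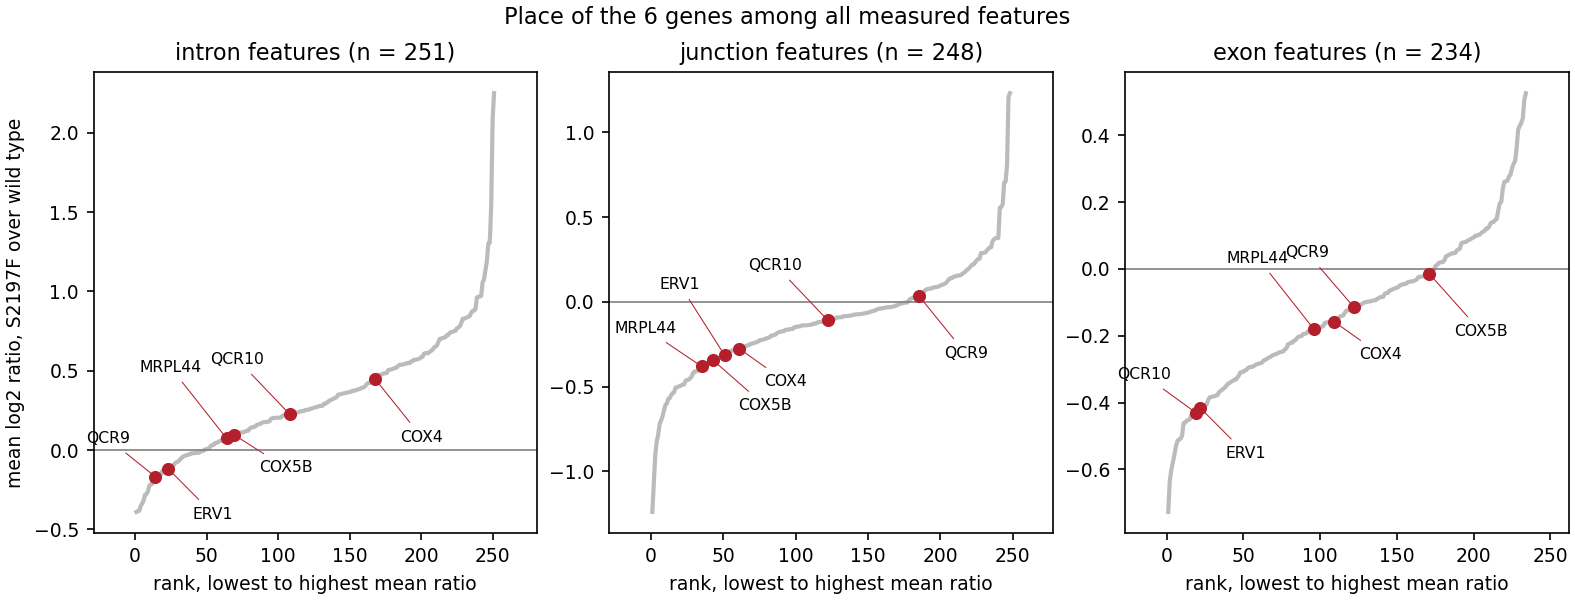
Mean log2 ratio (y axis, a different range in each panel) of all features of a class against their rank from lowest to highest (x axis), with the 6 genes in red. The introns of QCR9 and ERV1 lie near the low end and that of COX4 in the upper part, while the exons of QCR10 and ERV1 lie near the low end of their class.

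Differences among the 6 genes are given as a description, since 3 replicates cannot give a two-sided exact sign-flip p below 0.25. Of 15 pairs of genes, the 3 values of one gene lay wholly above those of the other in 4 pairs for introns, 2 for junctions and 2 for exons. Over all pairs of features in the table the share was 29.7% for introns, 15.8% for junctions and 17.7% for exons, and in none of the 3 classes was the share among the 6 genes above it. The COX4 intron lay above those of QCR9, ERV1 and MRPL44, and the QCR10 intron above that of QCR9. COX4 exceeded QCR9 by 0.70, 0.62 and 0.52 (0.61 ± 0.090, SD, n = 3), the steadiest of these gaps, and MRPL44 by 0.63, 0.013 and 0.47, where the values nearly met in replicate 2. The introns of the complex III genes, QCR10 and QCR9, differed by 0.18, 0.25 and 0.76, with QCR10 higher each time. Their exons differed the other way, QCR9 being higher by 0.52, 0.23 and 0.20. The remaining exon pair was QCR9 above ERV1, and for junctions COX5B lay below both QCR9 and QCR10. Neighbours in the order of intron means overlapped in their values, from COX4 and QCR10 down to ERV1 and QCR9.

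The rows of other genes most like each gene were found by the root mean square distance over its 9 values, among 204 complete rows. For COX4 they were the ribosomal protein genes RPL22A, RPL6A and RPL23A, at distances of 0.17, 0.19 and 0.21, against a median of 0.46 for all rows. For QCR9 they were DTD1, IST1 and UBC12 at 0.19, 0.21 and 0.21, and for QCR10 YBL059W, MUD1 and YOL048C at 0.21 to 0.22. COX5B was closest to YOL048C, BOS1 and RPL23A at 0.21 to 0.23, and ERV1 to PRE3, RPS14A and MUD1 at 0.18 to 0.23. MRPL44 was closest to OST5, RPL40B and CMC2, the last at 0.22. No row of these 6 genes was allowed as a neighbour.

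Other nuclear genes with an intron and a mitochondrial protein were taken from a list of 7, of which 5 had a row: RIM1, CMC2, COI1, OM14 and AIM11. PTC7 and CMC4 were not analysed here. Of the 5 introns 0 passed, as for the 6 genes and against the same 23.5%, and 0 had an unadjusted p below 0.05 by limma, against 36.7% of introns. The 5 junctions and the 4 exons gave 0 calls as well, and 1 junction, of AIM11, had an unadjusted p below 0.05, against 13.3% of junctions.

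RIM1 encodes the single-stranded DNA binding protein that coats mitochondrial DNA during replication. Its intron had -0.75, 0.20 and 1.05, the widest spread of these genes, and a mean of 0.17 ± 0.30 (adjusted p = 0.73). Its exon was steady at 0.0069, -0.020 and -0.049. The intron minus junction difference of RIM1 ran from -0.90 in replicate 1 to 1.14 in replicate 3, and its mean was 0.065 ± 0.30 (adjusted p = 0.88).

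CMC2 encodes a small cysteine-rich protein of the intermembrane space that acts in cytochrome oxidase assembly. Its intron had -0.21, -0.041 and 0.20 (-0.019 ± 0.16, adjusted p = 0.96), and its junction was below 0 each time at -0.32, -0.14 and -0.34 (-0.26 ± 0.15, adjusted p = 0.51). COI1, an inner membrane protein that interacts with respiratory chain complexes, had intron values of -0.089, 0.0027 and 0.85 (0.25 ± 0.21, adjusted p = 0.42). Its junction was measured in 2 replicates that disagreed, 0.96 and -0.47, and it had no exon value.

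OM14 encodes a protein of the outer membrane, and its intron was measured in 2 replicates, at 0.53 and -0.038 (0.25 ± 0.23, adjusted p = 0.47). AIM11, named for altered inheritance of mitochondria, had intron values of -0.41, 0.15 and -0.41 (-0.22 ± 0.18, adjusted p = 0.40), with a rank of 242 of 251, below QCR9. Its junction was below 0 each time at -0.43, -0.18 and -0.51 (-0.37 ± 0.16, adjusted p = 0.37). For reference, the intron of ACT1, the actin gene, had 0.75, 0.50 and 1.34 (0.86 ± 0.20, adjusted p = 0.024), and all 3 values lay above the values of COX4.

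**Figure D4:**
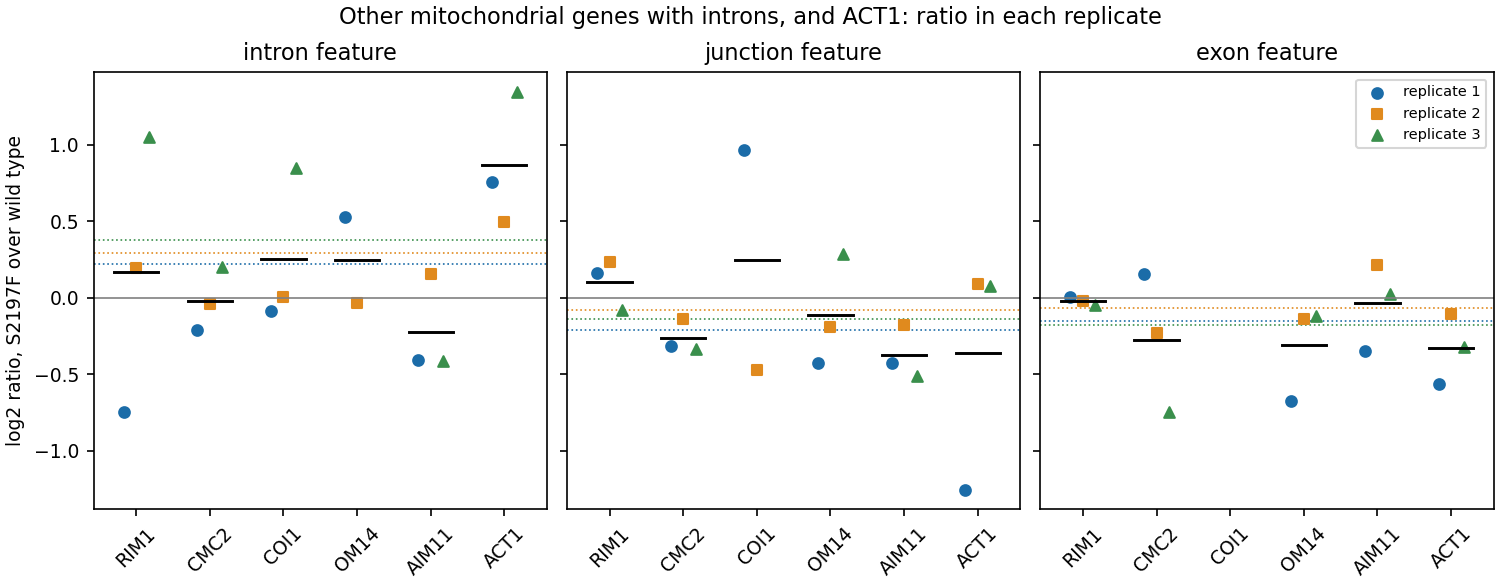
Log2 ratio of mutant over wild type (y axis) in each replicate for 5 further mitochondrial genes with introns and for ACT1, drawn as in the plot of the 6 genes, with a black bar at the mean of the replicates measured. The ACT1 intron is above 0 in every replicate, while each of the 5 other introns has values on both sides of 0.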

How the data were processed

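The authors deposited 1 log ratio per feature and biological replicate, from an array and its dye flip together, per the labels. How spots were read, filtered and normalized was not given in the sources used here. No log base is stated for these ratios either. Log2 was assumed because the values of a separate deposited table, of single arrays, stop at 16.61, which is log2 of 100000. That table has positions without gene names and served for nothing else. The number of arrays limits the precision.

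Features measured in 2 or 3 replicates were fitted across all genes with limma 3.58.1 in R 4.3.3, against 0, two-sided, all 3 classes in 1 fit. Within a class, rows with identical values counted once. Differences between classes had a fit each, in which no rows were merged. P-values were adjusted (Benjamini-Hochberg) over each class or difference, with a threshold of 0.05, and the code was tested on simulated data. Alternatives were centring on exon or own-class medians, complete features only, robust variances, separate fits, row-alone variances and leaving out each replicate. Own-class centring, and row-alone variances for the 3 classes, were chosen after seeing the data.

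The genes named are the 6, 7 related genes, ACT1 and the 3 nearest rows per gene. Members and lists were chosen with earlier results of these data known. CMC2 and COI1 were named by locus tag through the RefSeq gene table of assembly R64, which gave the same symbol for all 6 genes. No sequences are shown, since none were used here.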

Additional observations from a re-analysis of the deposited data

How the results depend on the processing

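Of the 36 ratios and differences of the 6 genes, 23 kept their sign in every setting run. The number of genes that passed stayed at 0 for junctions, exons and junction minus exon. It became 1 (COX4) for introns after centring on exon medians and with the variance of the row alone, and 1 (COX4) for intron minus junction with complete features only and with robust variances. It became 0 for intron minus exon with the variance of the row alone, and 0 to 0 when a replicate was left out. Signs turned after centring on exon medians for the COX5B exon (0.12), ERV1 intron (0.016), QCR10 junction (0.026) and QCR9 exon (0.018). They turned after centring on own-class medians for the COX5B exon (0.12) and intron (-0.20), MRPL44 intron (-0.22), QCR10 intron (-0.069) and junction (0.037), and QCR9 exon (0.018). When replicates were left out, signs turned for COX4 exon (-0.27 to 0.0011), COX5B exon (-0.20 to 0.12), intron (-0.11 to 0.23) and intron minus exon (-0.15 to 0.38), ERV1 intron (-0.29 to 0.12) and junction minus exon (-0.17 to 0.35), MRPL44 exon (-0.35 to 0.036), intron (-0.10 to 0.20) and junction minus exon (-0.34 to 0.064), and QCR9 junction (-0.10 to 0.14). Apart from the shift that centring makes by construction, the cause was not tested. Of all introns 59 passed, against 92 after exon centring, 4 after own-class centring, 3 with row-alone variances, 35 without replicate 1 and 2 without replicate 2. Of all intron minus junction rows 53 passed, against 67 with complete features only and 63 with robust variances. The count was 33 without replicate 1, 37 without replicate 2, 2 without replicate 3 and 0 with row-alone variances. Of all intron minus exon rows 72 passed, against 0, 45 and 0 without replicate 1, without replicate 2 and with row-alone variances. The junction count of 1 ran from 0 to 11. Spot intensities were not used, so how far dim features limit these ratios is unknown. Each ratio joins the mutant and wild type of a pair, so the test against 0 is itself the paired analysis, with no other block to add.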
